A study of Homo sapiens with 2 samples.

Results

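The 10 genes described here encode the core of the microRNA and siRNA silencing machinery: the Argonautes AGO1, AGO2, AGO3 and AGO4, the nucleases DICER1 and DROSHA, the DROSHA partner DGCR8, and the scaffolds TNRC6A, TNRC6B and TNRC6C. They were chosen by gene name from a table of 60448 genes, and all 10 belong to the 13203 genes with a mean FPKM (reads per kilobase of gene length and per unit of library depth) of at least 1. Polyadenylated RNA of HepG2, a human liver cancer line, was sequenced from cells given a negative control siRNA and from cells given an siRNA against SPRTN, a protease that cuts proteins crosslinked to DNA. Both siRNAs were used at 40 nM in a reverse lipid transfection of 24 h, and RNA was taken at 72 h, so the control cells also carry a transfected siRNA, of a sequence not given in the sources used here. Each condition has 1 library, so no difference has a replicate check, no test between conditions is possible, and every interval covers counting error only.

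In animal cells, DROSHA and DGCR8 form the nuclear Microprocessor, which cuts a hairpin out of a primary microRNA transcript, and Dicer trims that hairpin to a short duplex. An Argonaute keeps 1 strand of the duplex, the guide, and finds mRNAs whose 3′ UTR pairs with the guide's seed, which runs from position 2 to position 8. A TNRC6 (GW182) protein bound to the Argonaute then recruits the enzymes that shorten the poly(A) tail, remove the cap and repress translation. A synthetic siRNA needs neither the Microprocessor nor cutting by Dicer, but it is loaded into the same Argonautes, and AGO2 is the Argonaute known to slice a fully paired target.

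Since a transfected guide can also meet the mRNAs of the machinery itself, the seed of the SPRTN siRNA was searched for in their annotated 3′ UTRs. The sequences below show the guide, taken as the reverse complement of the sense strand given by the submitters, the intended site in SPRTN and the strongest site in each of the 4 machinery genes that hold one. Capitals in the guide mark its seed. Capitals in the mRNA lines mark the bases that pair with the seed, plus the final A of an 8-base site.
SPRTN siRNA guide: uUAACCAGaacuuccugac
SPRTN mRNA: gtcaggaagttCTGGTTAA
AGO1 mRNA: gcagacaaaagCTGGTTAg
AGO3 mRNA: tggtaaaaacaCTGGTTAg
DICER1 mRNA: tctgtgatcccCTGGTTAc
TNRC6B mRNA: taaatttttcgCTGGTTAA
All lines run 5′ to 3′, and each mRNA line is the 19-base window that would lie against the guide, in GENCODE release 29 transcripts on GRCh38. The SPRTN window pairs with all 19 bases of the guide, the AGO1 window with 10, and the windows of AGO3, DICER1 and TNRC6B with 9 each. The SPRTN site lies in the annotated 3′ UTR of 1 of 3 coding transcripts, and not in that of the longest. TNRC6B holds an 8-base site (CTGGTTAA), while AGO1, AGO3 and DICER1 hold a 7-base site to positions 2 to 8 (CTGGTTA). AGO2, AGO4, DROSHA, DGCR8, TNRC6A and TNRC6C hold neither of these, nor the 2 weaker forms searched, which are the 7-base TGGTTAA and the 6-base TGGTTA. Among 11131 measured coding genes with an annotated 3′ UTR, 10.5% hold CTGGTTA with or without the final A on the mRNA strand.

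The targeted gene and the general state of the libraries come first. SPRTN was at 7.81 FPKM with the control siRNA and 2.07 FPKM with the SPRTN siRNA, as the label has it. Library depth, as recovered from the deposited values, was 96440439 reads in the control library and 67078411 in the other. Which reads this depth takes in is not stated in the sources used here. Markers of hepatocytes were detected for 10 of 10 genes, with summed levels of 30928 and 41667 FPKM, and 8 of the 10 were higher in the SPRTN siRNA library. Of 7 fibroblast markers (summed 9.97 and 9.63 FPKM) 2 passed the mean of 1 FPKM, namely PDGFRB (8.15 and 8.49 FPKM) and COL1A1 (1.80 and 1.02 FPKM). COL3A1 and DCN were at 0 in both libraries. Of 7 blood cell markers 3 passed, PTPRC and HBB were at 0 in both libraries, and LYZ alone made up 1368 of 1377 FPKM in the control and 1294 of 1305 FPKM in the other. Of 7 endothelial markers 5 passed, at a summed level of 7.55 FPKM with the control siRNA and 14.3 FPKM with the SPRTN siRNA. Of 5 noncoding RNAs that can reflect RNA quality 4 passed. Of these, 3 nuclear RNAs were higher, namely MALAT1 (43.2 and 110 FPKM), NEAT1 (29.3 and 74.5 FPKM) and RN7SK (2.16 and 7.03 FPKM). SNHG1, named after its values were seen, was at 110 and 105 FPKM. The part of these shifts in the results on the machinery genes was not tested.

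DICER1 and AGO1 stood apart from the other 8 genes. DICER1 was 1.75-fold lower and AGO1 1.69-fold lower in the SPRTN siRNA library, TNRC6B, AGO2 and DROSHA were lower by less, and the other 5 were level or slightly higher. No member was past 2-fold in either direction, against 0.788% of measured genes that were at least 2-fold lower and 1.51% at least 2-fold higher. By a 1.5-fold rule 2 of 10 were lower, where 5.62% of all measured genes are, and 0 of 10 were higher, where 5.04% are. With the libraries centred on the median gene AGO1 lay just inside that limit, and 1 of 10 was past it. These rules were applied to log2(FPKM + 1), which understates the change of low genes. The median log2(FPKM + 1) ratio of the 10 was -0.13, beside -0.05 over all measured genes, and 5 of 10 lay below 0, beside 56.6%. Since RNA was taken from whole cultures, fewer cells expressing a gene and less RNA per cell cannot be told apart.

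**Figure D1:**
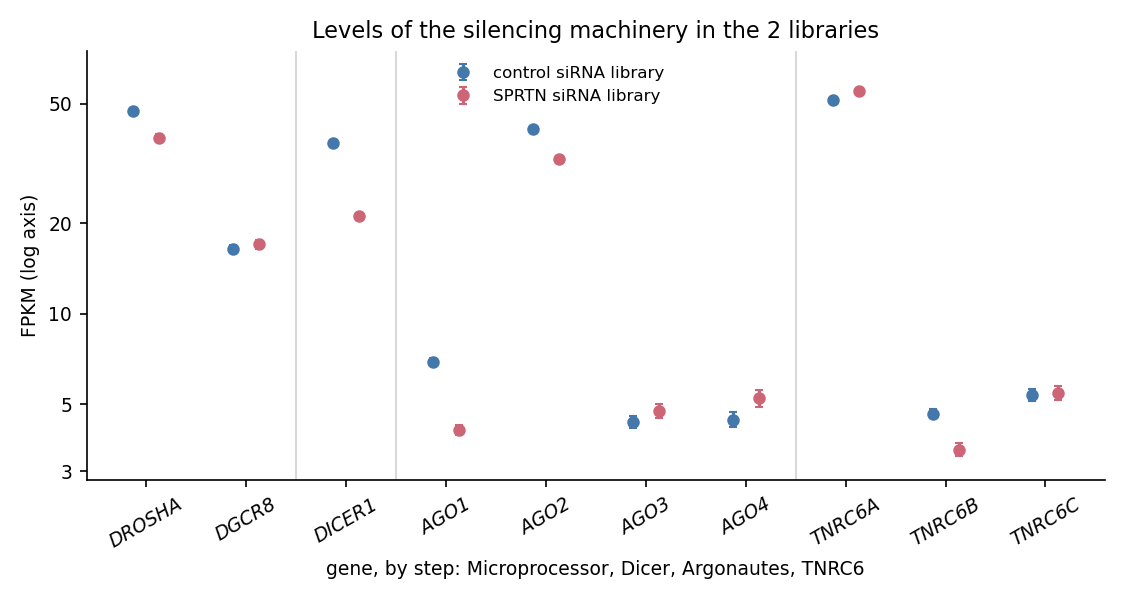
Level of each machinery gene in FPKM (log axis) in the control siRNA library (blue) and the SPRTN siRNA library (red), with exact Poisson 95% intervals of the reads, which are often smaller than the points. TNRC6A, DROSHA, AGO2, DICER1 and DGCR8 lie at 16.4 FPKM or more in both libraries and the other 5 at 6.93 FPKM or less; the widest gaps between libraries are those of DICER1 and AGO1.

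The Microprocessor genes went apart. DROSHA, the nuclease (ENSG00000113360; chr5:31400497-31532196, minus strand), was at 47.3 FPKM with the control siRNA and 38.5 FPKM with the SPRTN siRNA, from 6698 and 3798 reads. Its level with the SPRTN siRNA was thus 81.5% of that in the control, with a 95% interval of 78.3 to 84.8%, and 22.2% of measured genes had a lower log2(FPKM + 1) ratio. DGCR8, the partner of DROSHA (ENSG00000128191; chr22:20080232-20111877, plus strand), was at 16.4 FPKM with the control siRNA and 17.0 FPKM with the SPRTN siRNA, from 4195 and 3036 reads, or 104% (99.3 to 109%), an interval that holds equality. The FPKM of DROSHA divided by that of DGCR8 was thus 2.89 in the control and 2.26 in the SPRTN siRNA library. DGCR8 overlaps TRMT2A on the opposite strand, at 23.3 and 28.5 FPKM, and use of strand in the authors' counting is unstated in the sources used here, so reads of the 2 genes could be mixed.

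DICER1, which cuts microRNA hairpins in the cytoplasm (ENSG00000100697; chr14:95086228-95158010, minus strand), had the lowest ratio of the 10. Its level was 37.0 FPKM with the control siRNA and 21.1 FPKM with the SPRTN siRNA, from 12491 and 4954 reads. Its level with the SPRTN siRNA was thus 57.0% of that in the control (55.2 to 58.9%). By the log2(FPKM + 1) ratio of -0.78, 2.29% of measured genes lay lower. The 7-base site lies at chr14:95088066-95088072 on the minus strand, in the 3′ UTR in exon 29, 2426 bases after the stop codon, and 3 of 7 coding transcripts hold it. A pair of 6-base sites lies in the same UTR, 1057 and 2474 bases after the stop codon. Among the 781 measured genes whose strongest site is of this 7-base class, 5.63% had a lower log2(FPKM + 1) ratio than DICER1. The antisense gene DICER1-AS1 was at 1.16 and 1.48 FPKM, from 155 and 138 reads, which is small beside the reads of DICER1.

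**Figure D2:**
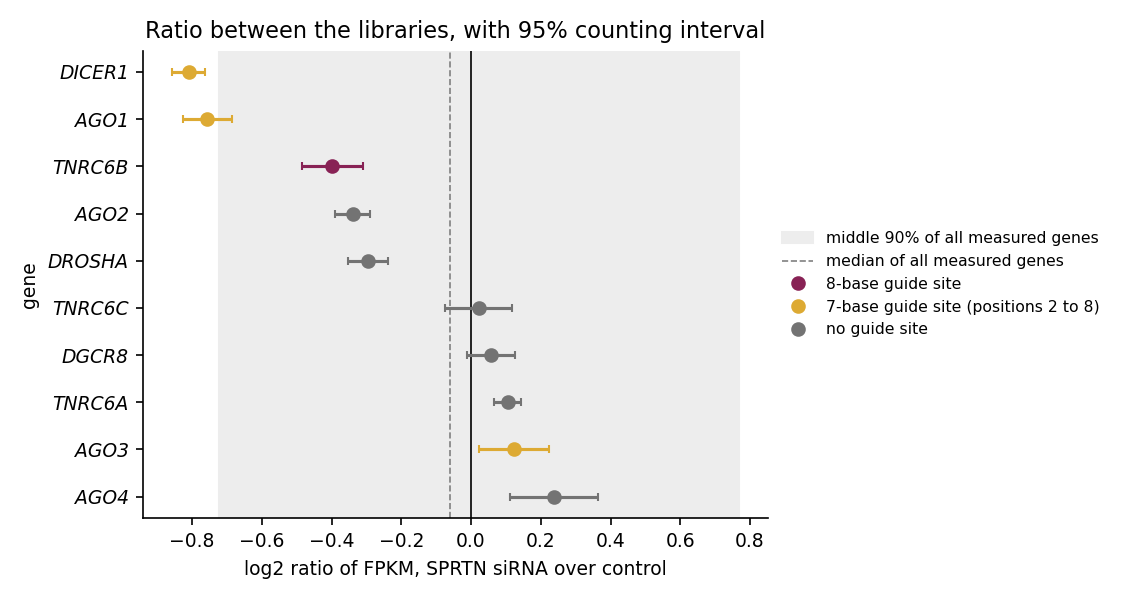
Ratio of FPKM between the SPRTN siRNA and control libraries on a log2 scale without a pseudocount, with 95% counting intervals, coloured by the strongest guide site in the 3′ UTR; the grey band holds the middle 90% of measured genes and the dashed line is their median of -0.06. DICER1 (-0.81) and AGO1 (-0.76) lie below the band's lower edge of -0.72, the interval of AGO1 reaching into the band, and the other 8 genes lie inside it.

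The Argonautes differed among themselves more than the TNRC6 genes did. AGO1 (ENSG00000092847; chr1:35869808-35930528, plus strand), a guide-binding Argonaute that acts mainly through TNRC6 proteins, was at 6.93 FPKM with the control siRNA and 4.10 FPKM with the SPRTN siRNA, from 5612 and 2311 reads. Its level with the SPRTN siRNA was thus 59.2% of that in the control (56.4 to 62.2%), and 4.47% of measured genes had a lower log2(FPKM + 1) ratio. AGO2, the slicing Argonaute (ENSG00000123908; chr8:140520156-140635619, minus strand), was at 41.3 and 32.7 FPKM, from 9525 and 5234 reads, or 79.0% (76.4 to 81.7%). This interval does not hold equality, and by the log2(FPKM + 1) ratio of -0.33, 18.4% of measured genes lay lower than AGO2. AGO3 (ENSG00000126070; chr1:35930718-36072500, plus strand) was at 4.36 FPKM with the control siRNA and 4.75 FPKM with the SPRTN siRNA, from 1880 and 1425 reads, or 109% (102 to 117%). AGO4 (ENSG00000134698; chr1:35808172-35857890, plus strand) was at 4.45 and 5.25 FPKM, from 1134 and 931 reads, or 118% (108 to 129%), the highest ratio of the 10.

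AGO4, AGO1 and AGO3 lie head to tail on chromosome 1, with 11917 bases between AGO4 and AGO1 and 189 bases between AGO1 and AGO3. The middle gene of this row was thus the lower one, and its neighbours on both sides were slightly higher. AGO1 and AGO3 hold the same set of guide sites, namely a 7-base site to positions 2 to 8, 2 of the 7-base form TGGTTAA and a 6-base site. Their placement differs. In AGO1 the 7-base site to positions 2 to 8 lies at chr1:35919984-35919990 in exon 19, 377 bases after the stop codon, and both coding transcripts hold it. In AGO3 it lies at chr1:36067209-36067215 in exon 19, 11464 bases after the stop codon of a 16755-base 3′ UTR, and 1 of 4 coding transcripts holds it. Within the class of 781 genes, 10.4% had a lower log2(FPKM + 1) ratio than AGO1 and 83.9% a lower one than AGO3. Which of the annotated transcripts HepG2 cells use cannot be read from values per gene, and whether the sites have a part in these ratios was not tested.

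**Figure D3:**
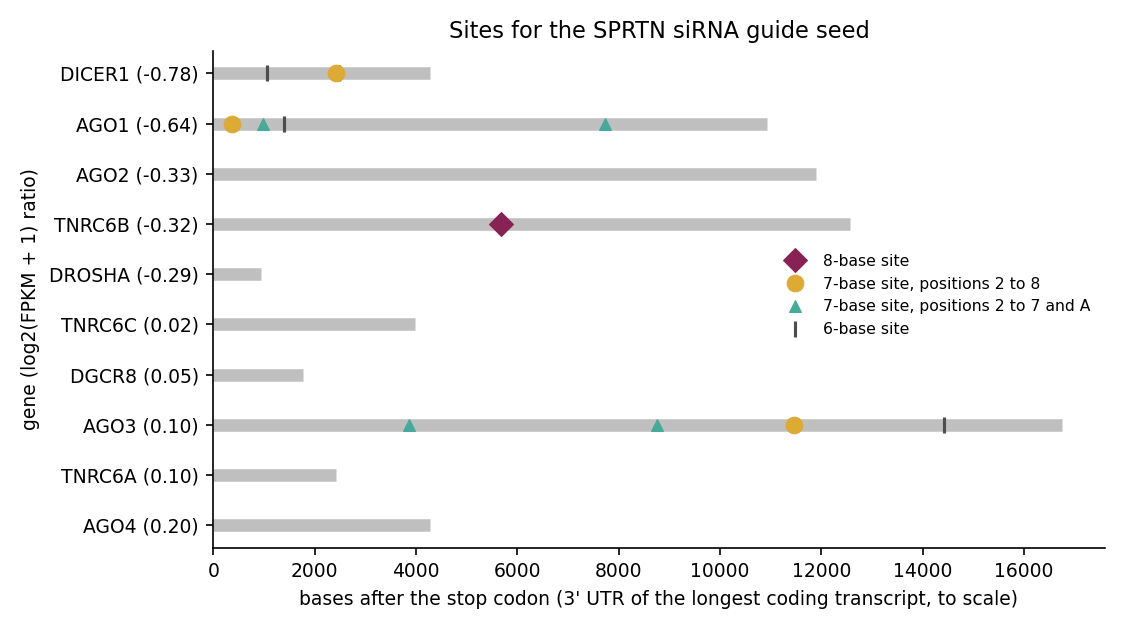
Annotated 3′ UTR of the longest coding transcript of each gene, drawn to scale in bases after the stop codon, with the sites for the guide seed and, beside each name, the log2(FPKM + 1) ratio, ordered from lowest to highest. DICER1, AGO1, TNRC6B and AGO3 hold the 8-base site or a 7-base site to positions 2 to 8; the bars of the other 6 genes, AGO2 with 11888 bases among them, are empty. Another 6-base site of DICER1 is hidden behind its 7-base marker.

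Of the TNRC6 scaffolds, TNRC6A (ENSG00000090905; chr16:24610209-24827632, plus strand) was the most expressed, at 51.3 FPKM with the control siRNA and 55.1 FPKM with the SPRTN siRNA. From 11856 and 8868 reads its level was 108% of the control (105 to 111%). TNRC6B (ENSG00000100354; chr22:40044817-40335808, plus strand) was at 4.65 and 3.53 FPKM, from 3110 and 1642 reads. That is 75.9% (71.5 to 80.6%), the lowest ratio of the 3. TNRC6C (ENSG00000078687; chr17:77959240-78108835, plus strand) was at 5.37 and 5.45 FPKM, from 2123 and 1499 reads, or 102% (95 to 109%), so its ratio could not be told from 1 at this depth. TNRC6C-AS1 on the opposite strand was at 1.45 FPKM with the control siRNA and 3.39 FPKM with the SPRTN siRNA, from 428 and 696 reads, and reads of this gene could enter the count of TNRC6C if strand was not used.

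The TNRC6B site is the only one of the 8-base class among the 10 genes. It lies at chr22:40328924-40328931 in exon 23, 5683 bases after the stop codon, and 3 of 5 coding transcripts hold it. The TNRC6B ratio is near the middle of its class: of 384 measured genes with an 8-base site 51.3% had a lower log2(FPKM + 1) ratio, and the class median was -0.33, beside -0.32 for TNRC6B.

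By site, the 10 genes divide as follows, as a description and not a test, since they were chosen with earlier results of these data known. The 4 with an 8-base site or a 7-base site to positions 2 to 8 had a median log2(FPKM + 1) ratio of -0.48, and 2 of them were past 1.5-fold lower. The 6 without such a site had a median of 0.04, ranged from -0.33 (AGO2) to 0.20 (AGO4), and 0 of them were past 1.5-fold. Over all measured coding genes the medians were -0.23 for 1165 genes with such a site and -0.05 for 9966 without, and 17.3% and 3.93% were past 1.5-fold lower. A long 3′ UTR has more room for such a site. The median longest 3′ UTR was 3433.5 bases in the 8-base class and 3101 bases in the 7-base class to positions 2 to 8. It was 897 bases in genes with none of the 4 forms. Among genes whose 3′ UTR is 0.5 to 2 times as long, such a site was present in 39.9% for AGO1, 47.0% for AGO3, 40.8% for TNRC6B and 20.5% for DICER1. With or without a site, those length-matched genes had median log2(FPKM + 1) ratios of -0.17 for AGO1, -0.16 for AGO3, -0.16 for TNRC6B and -0.13 for DICER1. Of them 72.1, 71.9, 71.5 and 67.4% lay below 0. AGO2 has a 3′ UTR of similar length to AGO1 (11888 and 10921 bases) and no guide site. Whether the sites or the length of the 3′ UTR have a part in these ratios was not tested.

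The other strand of the siRNA, the passenger, can also enter an Argonaute, so its sites were searched too. The 8-base passenger site TTCCTGAA occurs 2 times in the 3′ UTR of TNRC6B and 1 time each in those of AGO1 and AGO3. In AGO1 and AGO3 only 1 coding transcript holds it. AGO2 holds the 7-base TTCCTGA and AGO4 the 7-base TCCTGAA, 1 time each. DICER1, DROSHA, DGCR8, TNRC6A and TNRC6C hold no passenger site in their annotated 3′ UTRs. DICER1 thus has guide sites and no passenger site, while AGO1, AGO3 and TNRC6B have both.

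Within each family the make-up was compared as well. The 4 Argonautes summed to 57.1 FPKM with the control siRNA and 46.8 FPKM with the SPRTN siRNA, or 81.9% of the control. The 3 TNRC6 genes summed to 61.3 and 64.1 FPKM, or 105%. AGO1 made up 12.1% of the Argonaute sum in the control and 8.78% in the SPRTN siRNA library, while AGO3 went from 7.64 to 10.2% and AGO4 from 7.79 to 11.2%. AGO2 held the largest share in both, 72.4% and 69.8% by FPKM. The sizes of these shares depend on the gene length used, because the length behind the authors' FPKM is, for 6 of the 10 genes, the mean over all annotated transcripts in GENCODE release 29, and for AGO1, AGO3, TNRC6A and TNRC6C another whole length. For AGO2 the length is 2388 bases, although its longest coding transcript has 14581.

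For the scale per kilobase of coding sequence, all reads of a gene, those in its UTRs included, were divided by the coding length of its longest coding transcript. It is thus not a density of reads over the coding sequence. Per kilobase of coding sequence, AGO2 made up 52.5% of the Argonautes in the control and 52.9% in the SPRTN siRNA library, so the direction for AGO2 turns with the length used. The share of AGO1 was lower in the SPRTN siRNA library on every scale computed: 31.0 and 23.4% per kilobase of coding sequence, and 31.1 and 23.1% per kilobase of the longest coding transcript. The shares of AGO3 and AGO4 were higher on every scale computed. Among the TNRC6 genes, TNRC6A held 83.6 and 86.0% by FPKM and 67.4 and 71.9% per kilobase of coding sequence, and TNRC6B held 7.59 and 5.51% by FPKM and 18.9 and 14.3% per kilobase of coding sequence. DROSHA made up 74.3 and 69.3% of the Microprocessor sum by FPKM and 47.3 and 41.3% per kilobase of coding sequence, so which of the pair is higher depends on the length, but its lower share in the SPRTN siRNA library does not.

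**Figure D4:**
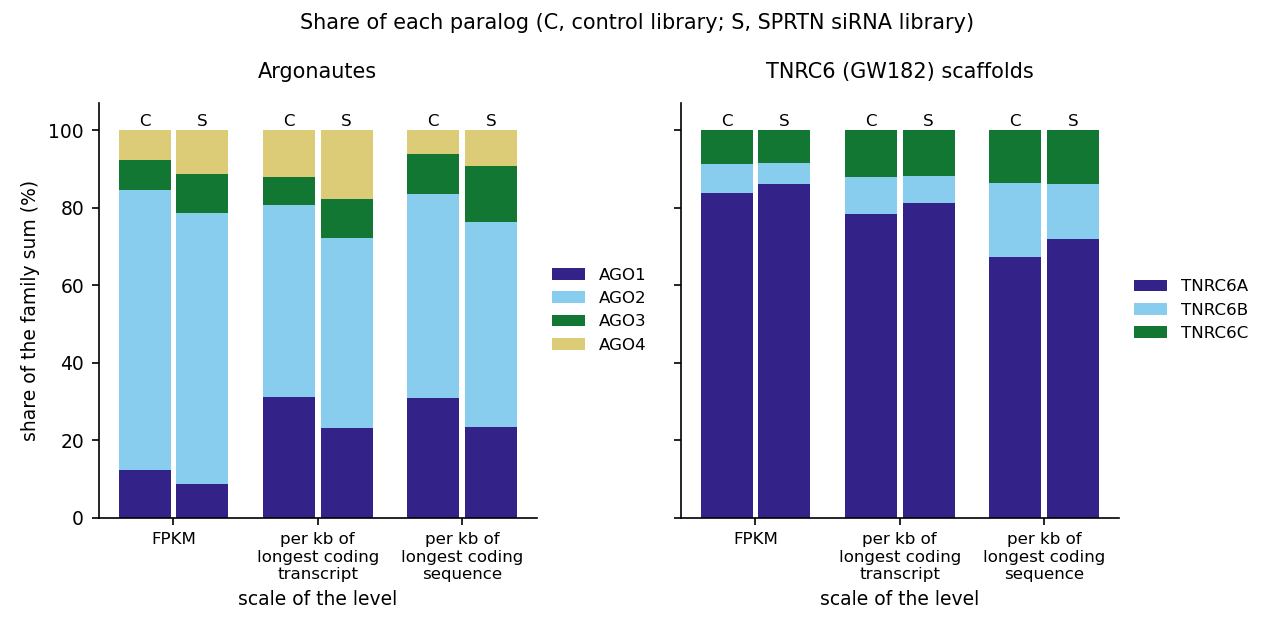
Share of each paralog in the summed level of the Argonautes (left) and of the TNRC6 scaffolds (right), in percent, in the control (C) and SPRTN siRNA (S) libraries, on 3 length scales. The share of AGO1 is lower in the SPRTN siRNA library on each scale (12.1 and 8.78% by FPKM), and that of TNRC6A is higher (83.6 and 86.0% by FPKM).

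The order of the levels by FPKM in the control was TNRC6A, DROSHA, AGO2, DICER1, DGCR8, AGO1, TNRC6C, TNRC6B, AGO4 and AGO3. The counting intervals of TNRC6B and AGO4 overlapped, as did those of AGO4 and AGO3. In the SPRTN siRNA library the first 5 kept their order, and AGO1 moved from the sixth to the ninth place, below TNRC6C, AGO4 and AGO3 and above TNRC6B. There the intervals of TNRC6C and AGO4, and of AGO4 and AGO3, overlapped. Per kilobase of the longest coding transcript, AGO2 (6.77 and 5.35) lay below TNRC6A, DROSHA, DICER1 and DGCR8 in both libraries. Per kilobase of coding sequence, which takes in the reads of its long 3′ UTR, AGO2 was the highest of the 10 in both libraries. It was there at 38.3 and 30.3 reads per kilobase on the depth scale of the FPKM. On that scale AGO1 (22.6) and DICER1 (22.5) came next in the control with overlapping intervals, while in the SPRTN siRNA library both (13.4 and 12.8) lay below TNRC6A (22.5), DGCR8 (19.5) and DROSHA (13.7), the last with an interval that overlaps that of AGO1.

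The partners of the machinery were read from 6 lists, also written with earlier results of these data known, of which 106 of 108 genes were measured. Their median log2(FPKM + 1) ratio was -0.15, beside -0.05 over all measured genes, and 75 of 106 lay below 0, beside 56.6%. Only 4 of 106 were past 1.5-fold lower, beside 5.62% of all measured genes, 1 of these was past 2-fold, and 0 were past 1.5-fold higher, beside 5.04%. All 4 past 1.5-fold lower hold a guide site of the 8-base class or the 7-base class to positions 2 to 8, which 16 of the 106 hold. The 16 had a median of -0.26, and 25.0% of them were past 1.5-fold lower, beside 17.3% of all measured coding genes with such a site. Site holders also lay above 0: EGFR, with an 8-base site, was at 0.17, and EIF4E2 and UBA6, with a 7-base site, were at 0.19 and 0.06 (all 3 named after their values were seen). The 90 partners without such a site had a median of -0.14, beside -0.05 for all measured coding genes without one. On this scale 0 of the 90 were past 1.5-fold lower, beside 3.93% of those coding genes. By the plain FPKM ratio, CNOT1 (1.502-fold lower, none of the 4 site forms) and FMR1 (1.503-fold lower, a 6-base site) were just past that limit. FMR1 was named after its values were seen. The split by site at 1.5-fold thus depends on the pseudocount, and whether the sites have a part in these ratios was not tested.

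Of the processing and export partners 19 of 20 were measured, with a median of -0.20, 15 below 0 and 0 past 1.5-fold. HNRNPA2B1, an RNA-binding protein that takes part in primary microRNA processing, was at 301 FPKM with the control siRNA and 219 FPKM with the SPRTN siRNA (log2(FPKM + 1) ratio -0.45). XPO5, exportin-5, which carries the hairpin to the cytoplasm, was at 110 and 84.3 FPKM (-0.38) and holds the 7-base site. The Dicer partners TARBP2 (30.1 and 34.0 FPKM) and PRKRA (38.7 and 41.2 FPKM), named after their values were seen, were at least as high in the SPRTN siRNA library as in the control, unlike DICER1.

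Of the Argonaute loading and RISC partners 25 of 25 matched genes were measured, with a median of -0.27, 19 below 0 and 2 past 1.5-fold lower. TSNAX, the catalytic subunit of the nuclease C3PO, which clears passenger strand pieces, was at 12.9 FPKM with the control siRNA and 6.05 FPKM with the SPRTN siRNA (log2(FPKM + 1) ratio -0.98). IPO8, an importin that binds Argonautes, was at 35.7 and 20.5 FPKM (-0.77). TSNAX holds an 8-base site and IPO8 a 7-base site. Of the turnover and phosphorylation genes 16 of 17 were measured, with a median of -0.13, 10 below 0 and 1 past 1.5-fold lower. That gene is TRIM71, a stem cell ubiquitin ligase reported in mouse cells to mark AGO2 for degradation, at 39.9 and 20.1 FPKM (-0.95) and with an 8-base site.

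Downstream of TNRC6, the decapping list had 18 of 18 genes measured, a median of -0.16, 13 below 0 and 1 past 1.5-fold lower. DCP2, the enzyme that removes the cap, was at 18.2 FPKM with the control siRNA and 7.24 FPKM with the SPRTN siRNA, which is 2.51-fold lower, and holds an 8-base site. Its log2(FPKM + 1) ratio of -1.22 lies below those of DICER1 and AGO1. The deadenylation list had 18 of 18 measured, a median of -0.10, 12 below 0 and 0 past 1.5-fold. CNOT1, the scaffold of the CCR4-NOT deadenylase that TNRC6 proteins contact, was just inside that limit at 191 and 127 FPKM (-0.58) and holds none of the 4 guide site forms, and the deadenylase CNOT7 was at 64.9 and 51.2 FPKM (-0.34). The tailing and trimming list had 10 of 10 measured, a median of -0.11, 6 below 0 and 0 past 1.5-fold, with PARN, a poly(A) ribonuclease, at 65.6 and 48.9 FPKM (-0.42) and DIS3L2, which degrades uridylated RNAs, at 15.2 and 12.8 FPKM (-0.24).

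**Figure D5:**
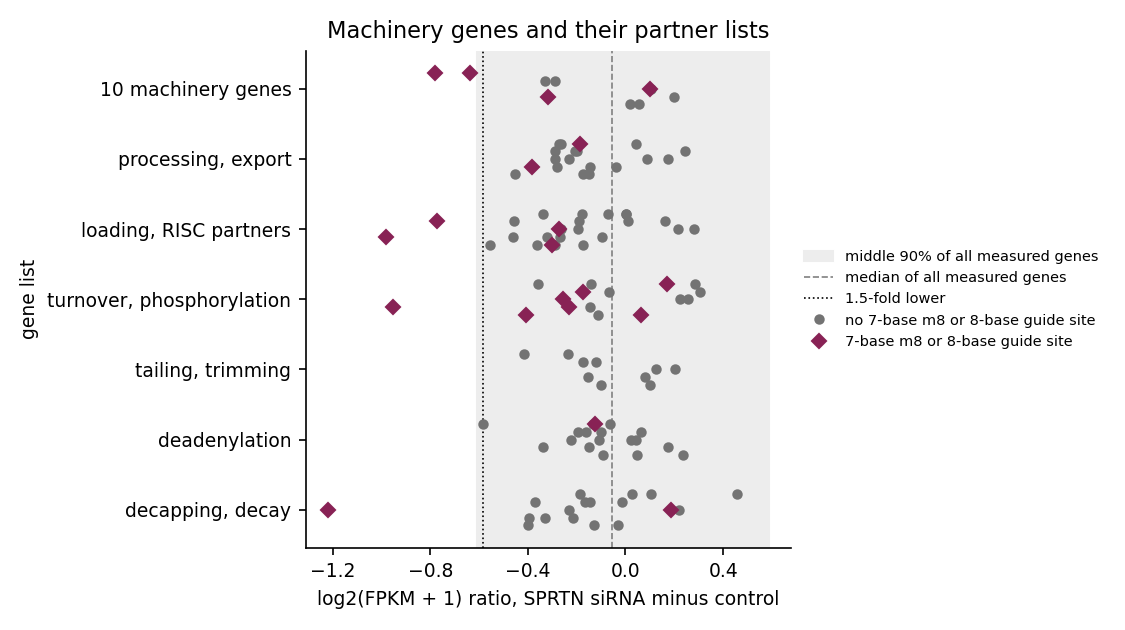
Log2(FPKM + 1) ratio of each measured gene of the machinery and of the 6 partner lists, SPRTN siRNA minus control, with purple diamonds for genes with an 8-base guide site or a 7-base site to positions 2 to 8. The dotted line marks 1.5-fold lower, and the 6 genes left of it are DICER1 (-0.78), AGO1 (-0.64), TSNAX (-0.98), IPO8 (-0.77), TRIM71 (-0.95) and DCP2 (-1.22), all of them diamonds. CNOT1 (-0.58) sits on the line without passing it, and TNRC6A is hidden behind the diamond of AGO3, both at 0.10.

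In the authors' deposited table, none of the 10 genes is called changed, while SPRTN is. The share of all genes called there is not given here, so this count cannot be read as a result about the 10. The log2 fold change in the authors' deposited table, without a pseudocount, is -0.81 for DICER1 and -0.76 for AGO1, and between -0.40 (TNRC6B) and 0.24 (AGO4) for the others. The adjusted p in the authors' deposited table is 5.91e-275 for DICER1, 1.98e-110 for AGO1 and 0.203 for TNRC6C, by a method that those sources leave unstated. Such a p compares the reads of these libraries and not the conditions.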

How the data were processed

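Groups were taken from the treatment label, 1 library each, and the column whose name carries the siRNA prefix was read as the SPRTN siRNA library. The authors deposited FPKM values per gene, and the title of that table speaks of row means, without saying what was averaged. Another deposited table holds a length-scaled coverage signal not corrected for depth, the authors' log2 fold change and the authors' p-value. GRCh38.p13 and edgeR are named, without role or version, per the submitters' processing notes. No aligner, counter, annotation release or strand setting is stated (not given in the sources used here).

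Depth was recovered from the values. Coverage times the gene's mean transcript length in GENCODE release 29, which gives a length for 94.1% of genes, is a whole number of reads within 0.02 for 88.9% of values. For the 10 genes whole reads came out in both libraries, for 6 at that length and for AGO1, AGO3, TNRC6A and TNRC6C at another whole length, for a reason that was not tested. Levels carry exact Poisson and ratios exact Clopper-Pearson 95% intervals of the reads, which cover counting error only and take PCR copies as independent molecules. Recovery and intervals were tested on simulated Poisson reads, with the length of each gene known in advance. The search for another length, which gave the reads of AGO1, AGO3, TNRC6A and TNRC6C, was not tested. No count model was used, as each group has 1 library.

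Log2 ratios subtract log2(FPKM + 1) of the control library from that of the SPRTN siRNA library, and a gene was measured where its FPKM averaged 1 or more, while percentages of control and folds beside levels are plain FPKM ratios. Coordinates, 3′ UTRs and site windows come from GENCODE release 29, and a gene's sites are those in the 3′ UTR of any annotated coding transcript, on the mRNA strand. Encoded proteins were not analysed here. The genes and lists were chosen with earlier results of these data known. All 10 genes and SPRTN are named. From each pathway, host transcript and RNA quality list the measured genes past 1.5-fold are named, at most 4 a direction. Where none was past it, the 2 with the largest absolute ratio are named. Cell type marker lists are given by their sums. The markers at 0 in both libraries, and the fibroblast and blood cell markers that passed the mean of 1 FPKM, were named after the values were seen. PIWI genes at or near 0 were also named then. EIF1A of the loading list had no match. Alternatives were another pseudocount, other filters, other scalings, recovered reads and other lengths. Python 3.11.15, numpy 2.4.6, pandas 2.3.3, scipy 1.17.1 and matplotlib 3.10.9 were used.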

Additional observations from a re-analysis of the deposited data

How the results depend on the processing

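Each of the 10 genes kept the sign of its log2 ratio under every pseudocount, filter and scaling tried: DICER1 ranged from -0.81 to -0.72 and AGO1 from -0.74 to -0.58. Centring on the median gene left 1 gene past 1.5-fold lower, as AGO1 then lay at -0.58 just inside the limit. With genes kept only where FPKM averaged 5 or more, the median was -0.29, since AGO3, AGO4 and TNRC6B are not measured there. With a pseudocount of 0.1, and with recovered reads, the partner lists held 2 genes past 2-fold lower. Those settings also put 1 deadenylation gene past 1.5-fold lower, namely CNOT1, which holds no guide site. The same 4 of 10 genes hold a guide site when the longest coding transcript alone is searched. The 2 length scales per coding transcript and per coding sequence were chosen after seeing the data, and by reads without a length AGO2 made up 52.5% and 52.9% of the Argonautes. No paired analysis was possible because each group has 1 library, and no library could be left out. Depth limits AGO4 most, at 1134 and 931 reads.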

Other observations

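The germline relatives of the Argonautes were nearly absent. Of 14 PIWI pathway genes 2 passed the mean of 1 FPKM and 9 were listed at 0 in each library, PIWIL1, PIWIL3 and PIWIL4 among them, while PIWIL2 was at 0.458 FPKM with the control siRNA and 0.870 FPKM with the SPRTN siRNA. The mitochondrial nuclease PLD6, a zucchini homolog, was at 6.55 and 9.55 FPKM (log2(FPKM + 1) ratio 0.48), and the Tudor protein gene TDRKH was at 3.55 and 2.72 FPKM (-0.29).

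Of 38 microRNA host transcripts named MIR...HG, 6 were measured, with a median log2(FPKM + 1) ratio of 0.01 and 0 past 1.5-fold. MIR210HG was at 2.62 FPKM with the control siRNA and 1.97 FPKM with the SPRTN siRNA (-0.29, from 241 and 126 reads), and MIR4458HG was at 1.73 and 1.98 FPKM (0.13, from 294 and 235 reads). The host of the miR-17 cluster, MIR17HG, named after its values were seen, was at 2.43 and 2.39 FPKM. Mature microRNAs were not measured in these libraries of polyadenylated RNA.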
